A study of Mus musculus with 12 samples.

Results

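Phospholipases A split the lipids of cell membranes and lipoproteins into a fatty acid and a lysophospholipid, and both products can act as signals between cells. The genes described here are 6: the phospholipase genes Pla1a, Pla2g7, Pla2g5, Pla2g2e and Pla2g4a, and Enpp2, whose enzyme acts on a lysophospholipid. They were selected on measured values of these arrays, since the selection stated that Pla1a and Pla2g7 were higher and Pla2g5 lower in papilloma fibroblasts, so the differences of papilloma fibroblasts from the other groups are given as a description, with no p-value. How many of them passed the threshold used for all genes is counted once, and nothing rests on that count. Of the 6 genes, 5 had a probe set paired with exactly 1 gene symbol, 1 probe set each, among 18194 genes measured. Enpp2, which encodes autotaxin, the secreted enzyme that makes lysophosphatidic acid from lysophosphatidylcholine, was not analysed here. Although most of these enzymes are secreted, the product of Pla2g4a works inside the cell.

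RNA was measured on Affymetrix mouse expression arrays in 12 samples of dermal fibroblasts, in 3 groups of 4. The Pap group came from papilloma-associated back skin of InvEE mice, the InvEE group from inflamed InvEE back skin, and the WT group from normal wild-type back skin. InvEE mice are transgenic for a constitutively active MEK1, a kinase of the MAP kinase cascade, placed under the promoter of the involucrin gene of differentiating keratinocytes, so the transgene is aimed at the epidermis and not at the cells measured. All 3 groups were 7-week-old males with the PDGFRα-H2B-eGFP allele, and green fluorescent cells were sorted from digested dermis. The sort thus takes any dermal cell that carries the fluorescent protein of that allele, and not 1 fibroblast type. Whether the 4 samples of a group came from separate animals is not given, so the spread between them may be technical. For a gene, a p-value here weighs a difference against 1 spread shared by the 12 samples of all 3 groups. That spread is also drawn toward the spread of other genes.

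As background, Pla1a is a secreted phospholipase A1 that acts on phosphatidylserine and leaves lysophosphatidylserine. Pla2g7 is the secreted acetylhydrolase that inactivates platelet-activating factor, a phospholipid signal of inflammation, and it also cuts oxidised phospholipids. Pla2g5 and Pla2g2e are secreted phospholipases A2, small calcium-dependent enzymes, and Pla2g2e is known in mouse skin from the hair follicle. Pla2g4a is the cytosolic phospholipase A2 that frees arachidonate for the synthesis of prostaglandins and leukotrienes.

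In the RefSeq annotation of GRCm38.p6, Pla2g5 and Pla2g2e lie on chromosome 4 with 1 protein-coding gene, Gm13030, between them. Their start regions are shown because these neighbours were both lower in Pap fibroblasts, and that of Pla2g7 because it was among the genes higher there. The RefSeq table held start regions for 4 of the 6 genes, with none for Pla1a and Enpp2. Each sequence runs 5′ to 3′ on the strand of its gene, with 250 bases before and 50 after the annotated start. The Pla2g2e region is chr4:138877692-138877991 on the plus strand, the upstream start of Pla2g5 is chr4:138863420-138863719 on the minus strand, its downstream start is chr4:138819208-138819507 on the minus strand, and the Pla2g7 region is chr17:43568201-43568500 on the plus strand. In Pla2g2e and Pla2g5, capitals mark matches to the letters of an AP-1 site or an NF-kappaB site. In Pla2g7 they mark CG dinucleotides.
Pla2g2e: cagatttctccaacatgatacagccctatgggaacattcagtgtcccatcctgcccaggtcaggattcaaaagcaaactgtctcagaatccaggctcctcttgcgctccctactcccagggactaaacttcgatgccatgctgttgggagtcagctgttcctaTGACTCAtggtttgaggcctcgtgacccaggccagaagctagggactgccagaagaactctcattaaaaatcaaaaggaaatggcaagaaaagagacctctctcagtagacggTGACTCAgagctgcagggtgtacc
Pla2g5 upstream start: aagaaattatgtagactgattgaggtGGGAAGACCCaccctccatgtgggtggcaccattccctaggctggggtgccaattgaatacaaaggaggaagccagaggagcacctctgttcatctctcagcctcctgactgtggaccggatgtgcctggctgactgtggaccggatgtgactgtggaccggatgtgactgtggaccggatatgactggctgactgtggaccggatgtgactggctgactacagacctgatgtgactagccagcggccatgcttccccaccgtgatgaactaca
Pla2g5 downstream start: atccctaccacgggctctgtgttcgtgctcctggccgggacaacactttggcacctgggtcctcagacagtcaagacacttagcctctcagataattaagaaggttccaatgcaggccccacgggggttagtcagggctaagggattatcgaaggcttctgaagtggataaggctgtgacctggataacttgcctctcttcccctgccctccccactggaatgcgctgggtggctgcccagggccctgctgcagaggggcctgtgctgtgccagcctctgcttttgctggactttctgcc
Pla2g7: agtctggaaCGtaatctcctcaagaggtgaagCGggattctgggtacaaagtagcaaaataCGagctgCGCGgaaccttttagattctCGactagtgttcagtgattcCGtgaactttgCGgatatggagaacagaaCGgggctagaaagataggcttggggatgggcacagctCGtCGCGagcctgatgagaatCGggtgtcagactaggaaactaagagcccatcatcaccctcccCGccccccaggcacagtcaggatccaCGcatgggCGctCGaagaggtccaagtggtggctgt

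The AP-1 letters TGANTCA, which read the same on both strands, stood in the Pla2g2e region with first bases 87 bases before and 26 bases after the start. Of 32851 RefSeq start regions of this length, 7.81% held at least 1 such match and 0.460% held 2 or more. The NF-kappaB letters GGGAANNNCC, searched on both strands, matched the upstream region of Pla2g5 once, 224 bases before the start, and matched 5.78% of all regions. The downstream region of Pla2g5 and the Pla2g7 region held neither motif, nor the letters TATAAA, which 13.6% of all regions held. No matches of different motifs overlapped in these regions. The Pla2g7 region held 17 CG dinucleotides, against a median of 7 over all regions, and 31.4% of all regions held at least 17. These matches describe the printed letters and say nothing of which factor acts there.

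Levels are normalized log2 values of each array, so that 1 unit is a factor of 2, and the levels of different genes are not comparable on this scale. Pla1a and Pla2g7 were far higher in Pap fibroblasts than in both other groups, Pla2g5 and Pla2g2e were lower, and Pla2g4a was less clearly higher. In Pap against WT fibroblasts, 2 of the 5 measured genes were called higher and 2 lower at an adjusted p under 0.05, where 4.85% of all genes were called higher and 4.80% lower. The Pap and WT arrays did not overlap for 3 of the 5, and did not overlap for 13.8% of all genes. Against InvEE fibroblasts, 2 of the 5 were called higher and 1 lower in Pap fibroblasts, where 3.67% of all genes were called higher and 3.04% lower, and the groups did not overlap for 3 of the 5, and did not overlap for 21.1% of all genes. The selection used these contrasts, so these counts are no evidence about the genes. In these sorted bulk samples, fewer cells of a type and less RNA per cell cannot be told apart.

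Pap replicate 4 and WT replicate 4 stood apart from their groups over all genes. Of the Pap values given below, Pap replicate 4 had the lowest Pla1a and Pla2g4a and the highest Pla2g5. Of the WT values, WT replicate 4 had the lowest Pla2g7, Pla2g5 and Pla2g2e. The mean correlation with the other arrays of the group was 0.893 for Pap replicate 4 and 0.925 for WT replicate 4. It was at least 0.934 and 0.951 for the other arrays of these groups. The Gapdh probe sets at the 3′ end exceeded those at the 5′ end, a measure of RNA quality. The excess was 3.76 on Pap replicate 4, against 2.29 to 2.60 on the other Pap arrays, and 3.37 on InvEE replicate 3. InvEE replicate 3 had the lowest Pla1a, Pla2g5, Pla2g2e and Pla2g4a and the highest Pla2g7 of its group. The Gapdh measure also differed by group, with means of 2.80 ± 0.66 in Pap, 2.15 ± 0.83 in InvEE and 1.84 ± 0.30 in WT fibroblasts. Every Pap array was above every WT array, though Pap replicate 2, at 2.29, and WT replicate 4, at 2.28, were close. The same measure for actin averaged −0.12 ± 0.24 in Pap, −0.30 ± 0.14 in InvEE and −0.47 ± 0.066 in WT fibroblasts, again with no overlap of Pap and WT. Pap minus WT was 0.96 for Gapdh and 0.35 for actin, each at p = 0.0286 in an exact two-sided permutation test, the smallest that 4 against 4 arrays allow, and at 0.0686 adjusted over 12 control tests. The part of RNA quality in the Pap minus WT differences that follow was not tested. Without Pap replicate 4 and WT replicate 4, a choice made after seeing the data, Pap minus WT was 5.61 for Pla1a, 5.14 for Pla2g7, −4.14 for Pla2g5, −4.37 for Pla2g2e and 2.32 for Pla2g4a.

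**Figure D1:**
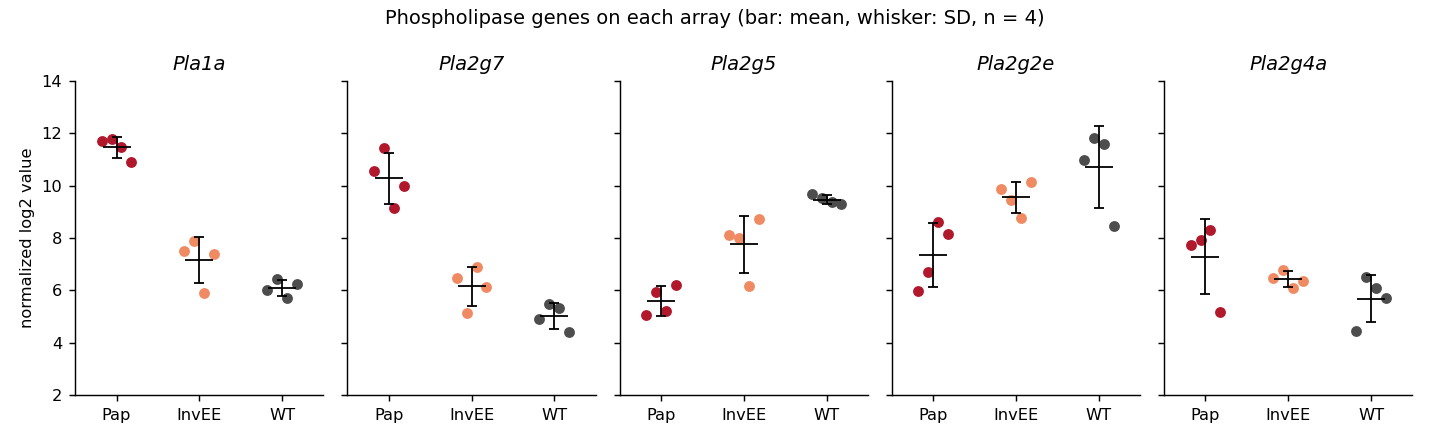
Normalized log2 values of the 5 measured phospholipase genes on each array (points, replicates 1 to 4 from left to right), with the group mean (bar) and SD (whisker, n = 4), for Pap, InvEE and WT fibroblasts. Pla1a lies between 10.89 and 11.78 on the Pap arrays and between 5.71 and 6.44 on the WT arrays, and Pla2g5 lies between 5.04 and 6.20 on the Pap arrays and between 9.28 and 9.69 on the WT arrays.

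Pla1a and Pla2g7 were both higher in Pap fibroblasts than in the other groups, by differences close to each other in size. Pla1a values were 11.72, 11.78, 11.49 and 10.89 on the Pap arrays, 7.48, 7.87, 5.89 and 7.38 on the InvEE arrays, and 6.02, 6.44, 5.71 and 6.23 on the WT arrays. Every Pap array was above every other array by a wide margin, while InvEE replicate 3 fell among the WT arrays. The group means were 11.47 ± 0.41 in Pap, 7.16 ± 0.87 in InvEE and 6.10 ± 0.31 in WT fibroblasts (SD, n = 4 each). The difference was 5.37 ± 0.37 (SE) for Pap minus WT, 41.3-fold, and 4.31 ± 0.37 for Pap minus InvEE, 19.8-fold.

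Pla2g7 had a similar order of groups with a wider spread among the Pap arrays. It measured 10.54, 11.45, 9.14 and 9.98 on the Pap arrays, 6.47, 5.14, 6.88 and 6.14 on the InvEE arrays, and 4.89, 5.49, 5.32 and 4.39 on the WT arrays. The lowest Pap array was still above the highest InvEE array, and InvEE and WT arrays overlapped. The means were 10.28 ± 0.97 in Pap, 6.16 ± 0.74 in InvEE and 5.02 ± 0.49 in WT fibroblasts. Pap minus WT was 5.26 ± 0.48 (38.2-fold) and Pap minus InvEE 4.12 ± 0.48 (17.4-fold). These lie within the SE of the Pla1a differences, and without Pap replicate 3 Pap minus WT was 5.63 for Pla2g7 and 5.36 for Pla1a, so neither gene is shown to differ more. The WT mean lay below the lower quartile of the arrays, 5.30, and the size of a difference from so dim a value depends on a background correction that is not given in the sources used here. Group means below 6.163, a value under which 40% of all probe sets averaged, are called dim from here on, and this holds also for Pla2g7 in InvEE, for Pla1a and Pla2g4a in WT and for Pla2g5 in Pap fibroblasts.

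Pla2g7 is also made by macrophages, so markers of these cells stand beside it. Adgre1, which encodes a defining surface antigen of mouse macrophages, averaged 4.51 ± 0.11 in Pap, 4.22 ± 0.21 in InvEE and 4.67 ± 0.32 in WT fibroblasts, below the lower quartile of the arrays in each group. Over 12 macrophage markers, the mean value per array lay between 6.30 and 6.59 in Pap, 5.97 and 6.51 in InvEE and 6.30 and 6.76 in WT fibroblasts, with 0 called higher and 1 lower in Pap against WT. The marker called lower was Csf1r, the receptor of macrophage colony-stimulating factor, at 9.62 ± 0.68 in Pap against 11.77 ± 0.13 in WT fibroblasts (difference −2.14 ± 0.45, adjusted p = 0.0102, with −1.50 and −0.48 at its other 2 probe sets), and it was named after its values were seen. The mannose receptor gene Mrc1, also named after its values were seen, measured 5.46, 5.99, 6.12 and 9.54 on the Pap arrays, with Pap replicate 4 apart. Pla2g7 in Pap replicate 4, at 9.98, was between the other Pap arrays. Of the 12 macrophage markers, 0 were called by limma in Pap against InvEE and 0 in InvEE against WT fibroblasts. At an unadjusted p under 0.05 there were 3 and 4. Their median Pap minus InvEE difference was 0.32, against 0.12 over all genes. The part of macrophages in the Pla2g7 values was not tested.

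Pla2g5 ran the other way. It measured 5.04, 5.93, 5.21 and 6.20 on the Pap arrays, 8.11, 7.99, 6.17 and 8.74 on the InvEE arrays, and 9.69, 9.53, 9.38 and 9.28 on the WT arrays. All WT arrays were above all InvEE and Pap arrays, and InvEE replicate 3 lay just below the highest Pap array. Group means were 5.59 ± 0.56 in Pap, 7.75 ± 1.11 in InvEE and 9.47 ± 0.18 in WT fibroblasts. Pap minus WT was −3.88 ± 0.45, a level 14.7-fold lower in Pap, and Pap minus InvEE was −2.16 ± 0.45, 4.46-fold lower.

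Pla2g2e was also lower in Pap fibroblasts, with more scatter. Its values were 5.99, 6.71, 8.59 and 8.15 on the Pap arrays, 9.86, 9.44, 8.78 and 10.12 on the InvEE arrays, and 10.98, 11.83, 11.59 and 8.44 on the WT arrays. WT replicate 4 stood more than 2 units below the other WT arrays and within the Pap range, whereas all InvEE arrays were above all Pap arrays. The means were 7.36 ± 1.22 in Pap, 9.55 ± 0.59 in InvEE and 10.71 ± 1.55 in WT fibroblasts, with Pap minus WT −3.35 ± 0.73 (10.2-fold lower) and Pap minus InvEE −2.19 ± 0.73 (4.56-fold lower). Without WT replicate 4, Pap minus WT was −4.11.

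The other secreted phospholipase genes beside this pair did not follow it past the test. Pla2g2d and Pla2g2f, the protein-coding genes on the other side of Pla2g5 on chromosome 4, differed by −0.49 and 0.07 between Pap and WT fibroblasts, neither of them called. Pla2r1, which encodes a receptor that binds secreted phospholipases A2, differed by −0.48. Of the 10 other genes in a list of secreted phospholipases A2 and their receptor, 0 were called by limma in any of the 3 comparisons. At an unadjusted p under 0.05 there were 2 in Pap against WT, 2 in Pap against InvEE and 1 in InvEE against WT, and the median difference was 0.01 for Pap minus WT, against 0.04 over all genes.

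Among pericyte and smooth muscle markers, 2 of 8 were called lower and 0 higher in Pap against WT fibroblasts, Kcnj8 and Abcc9, which encode the subunits of a potassium channel of pericytes. In Pap against InvEE fibroblasts 3 of the 8 were called lower and 0 higher, and in InvEE against WT fibroblasts 1 lower and 0 higher. Over 8 such markers the mean value per array lay between 7.08 and 7.61 in Pap, 7.62 and 7.89 in InvEE and 8.08 and 8.18 in WT fibroblasts, a Pap minus WT difference of −0.85 in the mean. Kcnj8, named with Abcc9 after their values were seen, averaged 7.07 ± 0.49 in Pap, 9.22 ± 0.47 in InvEE and 11.08 ± 0.19 in WT fibroblasts and made up more of that difference than the others together. Over the 7 other markers the mean per array lay between 7.07 and 7.59 in Pap, 7.38 and 7.68 in InvEE and 7.63 and 7.80 in WT fibroblasts, a Pap minus WT difference of −0.40. The part of such cells in the values of Pla2g5 and Pla2g2e was not tested.

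Pla2g4a had the smallest Pap minus WT difference of the 5 genes. It measured 7.74, 7.92, 8.32 and 5.16 on the Pap arrays, 6.48, 6.79, 6.07 and 6.36 on the InvEE arrays, and 4.44, 6.52, 6.08 and 5.69 on the WT arrays. Of the Pap arrays, 3 were above every other array and replicate 4 was below all but 1, so the groups overlapped. The means were 7.28 ± 1.44 in Pap, 6.43 ± 0.30 in InvEE and 5.68 ± 0.90 in WT fibroblasts, with Pap minus WT 1.60 ± 0.62 (3.04-fold) and Pap minus InvEE 0.86 ± 0.62 (1.81-fold). Without Pap replicate 4 these differences were 2.31 and 1.57.

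**Figure D2:**
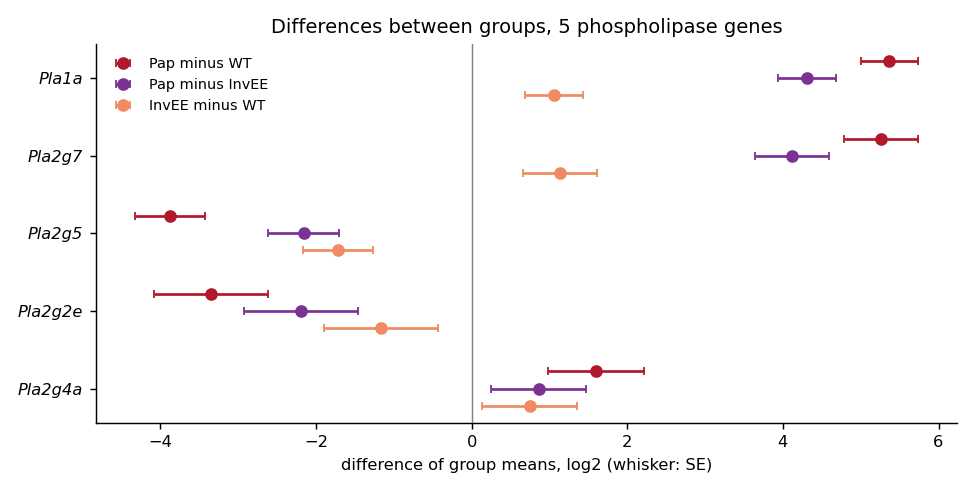
Differences of group means on the log2 scale (points) with their SE (whiskers) for 5 phospholipase genes: Pap minus WT, Pap minus InvEE and InvEE minus WT. Pap minus WT is the largest of the 3 differences in size for each gene, from 5.37 for Pla1a down to −3.88 for Pla2g5, and InvEE minus WT has the same sign.

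For InvEE against WT fibroblasts, inflamed skin against normal skin, the selection stated no direction, but the members were chosen with earlier results of these data known. This comparison also shares the WT and InvEE arrays with the contrasts that the selection used. Its p-values are therefore no independent test of these genes. Each measured gene lay between its Pap and WT means in InvEE fibroblasts, and 0 of the 5 were called by limma (3 at an unadjusted p under 0.05), where 0.258% of all genes were called higher and 0.275% lower. InvEE and WT arrays did not overlap for 1 of the 5, Pla2g5, and did not overlap for 15.3% of all genes. For Pla2g5, InvEE minus WT was −1.72 ± 0.45, with a 95% interval of −2.71 to −0.73, before adjustment over genes, and an adjusted p of 0.114 in limma. Pla1a was higher by 1.06 ± 0.37 (interval 0.25 to 1.87, adjusted p = 0.212) and Pla2g7 by 1.13 ± 0.48 (interval 0.097 to 2.17, adjusted p = 0.284). Pla1a passed the test without InvEE replicate 3, at 1.48 with an adjusted p of 0.0487. Intervals of Pla2g2e, −2.76 to 0.44, and of Pla2g4a, −0.60 to 2.08, included 0, with differences of −1.16 ± 0.73 and 0.74 ± 0.62 and adjusted p = 0.454 and 0.562. These intervals leave room for differences of more than 1 unit, so InvEE and WT levels are not shown to be alike.

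The poly-A spike controls, RNAs added in a fixed amount, were lower on the InvEE arrays, at 8.12 ± 0.35, than on the Pap arrays, at 10.96 ± 1.14, and the WT arrays, at 10.51 ± 1.26. InvEE minus WT of these controls was −2.39 (exact two-sided permutation test, p = 0.0286, the smallest that 4 against 4 arrays allow, adjusted 0.0686 over 12 control tests). With their level as a covariate, Pap minus InvEE was −0.48 for Pla2g2e and 2.49 for Pla2g4a, and InvEE minus WT was −0.63 for Pla2g4a.

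Other genes of phospholipid and lysophospholipid metabolism were read from 8 lists, with 92 measured genes besides the members. In Pap against WT fibroblasts 8 rose and 4 fell, 13.0% of the 92 where 9.65% of all genes were called in either direction, with a median difference of 0.12 against 0.04 over all genes. In Pap against InvEE fibroblasts 8 rose and 4 fell as well, where 6.71% of all genes were called, with a median of 0.24 against 0.12. In InvEE against WT fibroblasts 1 rose and 1 fell, 2.17% of the 92 where 0.533% of all genes were called. The counts of single lists that follow stand against these same shares, and whether a list exceeds them was not tested. Ribosomal protein genes averaged lower in Pap fibroblasts, and scaling to 46 of them adds 0.23 to every Pap minus WT difference, 0.40 to Pap minus InvEE and −0.18 to InvEE minus WT. Under that scaling the split of all calls was 1198 higher and 482 lower for Pap against WT, where unscaled values gave 883 and 873. It was 3394 and 321 for Pap against InvEE, where unscaled values gave 668 and 553, and 30 and 75 for InvEE against WT, where they gave 47 and 50.

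**Figure D3:**
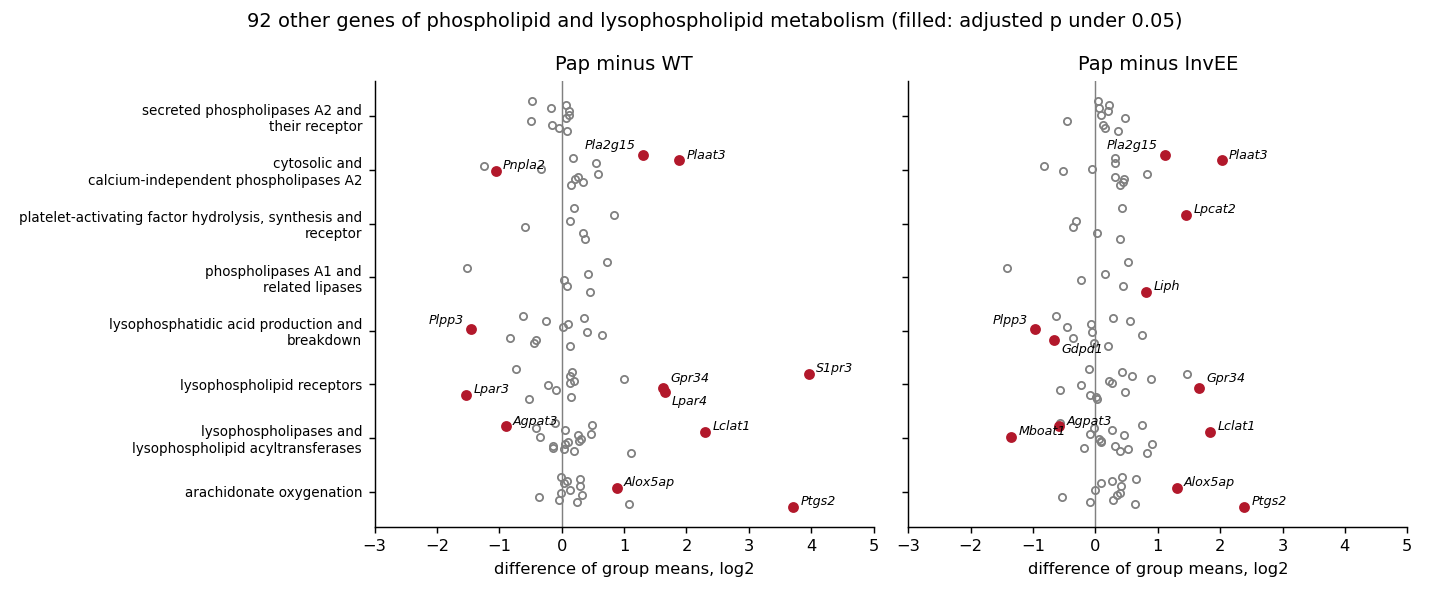
Differences of group means on the log2 scale for 92 other genes of 8 lists (points, 1 row per list), Pap minus WT on the left and Pap minus InvEE on the right, with genes at an adjusted p under 0.05 filled and named. S1pr3 at 3.96 and Ptgs2 at 3.71, the second against a dim WT mean, lie farthest to the right for Pap minus WT, and no gene of the secreted phospholipase A2 list is filled.

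Among the receptors for lysophospholipids, 3 of 14 rose and 1 fell in Pap against WT fibroblasts. S1pr3, a receptor for sphingosine-1-phosphate, measured 10.48, 10.84, 11.38 and 7.79 on the Pap arrays, 8.60, 8.29, 9.81 and 7.96 on the InvEE arrays, and 6.95, 6.07, 6.21 and 5.43 on the WT arrays. All Pap and InvEE arrays were above all WT arrays. Pap minus WT was 3.96 ± 0.68 (adjusted p = 0.00326) and was called under each of 19 alternatives, while its other 2 probe sets gave 1.63 and 2.13. InvEE minus WT was 2.50 ± 0.68 (adjusted p = 0.121), not called, and the other 2 probe sets gave 0.19 and 0.69.

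Gpr34, a receptor for lysophosphatidylserine, the product of Pla1a, rose from a dim level. It measured 5.48, 5.95, 4.87 and 5.44 on the Pap arrays, 3.71, 3.61, 4.06 and 3.68 on the InvEE arrays, and 3.75, 3.92, 3.91 and 3.62 on the WT arrays. Every Pap array was above every other array, yet all 3 group means were dim. Pap minus WT was 1.63 ± 0.21 (adjusted p = 0.000433) and Pap minus InvEE 1.67 ± 0.21 (adjusted p = 0.000624). The other receptors for this lipid, P2ry10 and Gpr174, differed by −0.22 and 0.13 between Pap and WT fibroblasts and were not called.

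Of 5 measured receptors for lysophosphatidic acid, the product of autotaxin, Lpar4 rose and Lpar3 fell in Pap against WT fibroblasts. Lpar1, Lpar2 and Lpar6 differed by −0.53, 0.15 and −0.09 and were not called. Lpar4 measured 6.78, 7.43, 7.16 and 6.25 on the Pap arrays, 5.80, 5.997, 7.79 and 6.11 on the InvEE arrays, and 5.20, 5.84, 5.44 and 4.55 on the WT arrays. All Pap arrays were above all WT arrays, whose mean was dim, and the Pap minus WT difference of 1.65 ± 0.43 passed the test (adjusted p = 0.0314). This call was lost without Pap replicate 1, 2 or 3 or WT replicate 1, 3 or 4, at 1.41 to 1.71, and its other 2 probe sets gave 0.64 and 1.49. Lpar3 was dim throughout, at 3.97, 3.84, 3.93 and 3.69 on the Pap arrays, 3.61, 3.65, 4.30 and 4.22 on the InvEE arrays, and 5.50, 5.08, 5.48 and 5.48 on the WT arrays. It fell in both transgenic groups, by 1.53 ± 0.19 in Pap (adjusted p = 0.000322) and by 1.44 ± 0.19 in InvEE fibroblasts (adjusted p = 0.0201), each against WT. Without InvEE replicate 1 or 2 or WT replicate 1 the InvEE difference, −1.40 to −1.33, was not called.

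**Figure D4:**
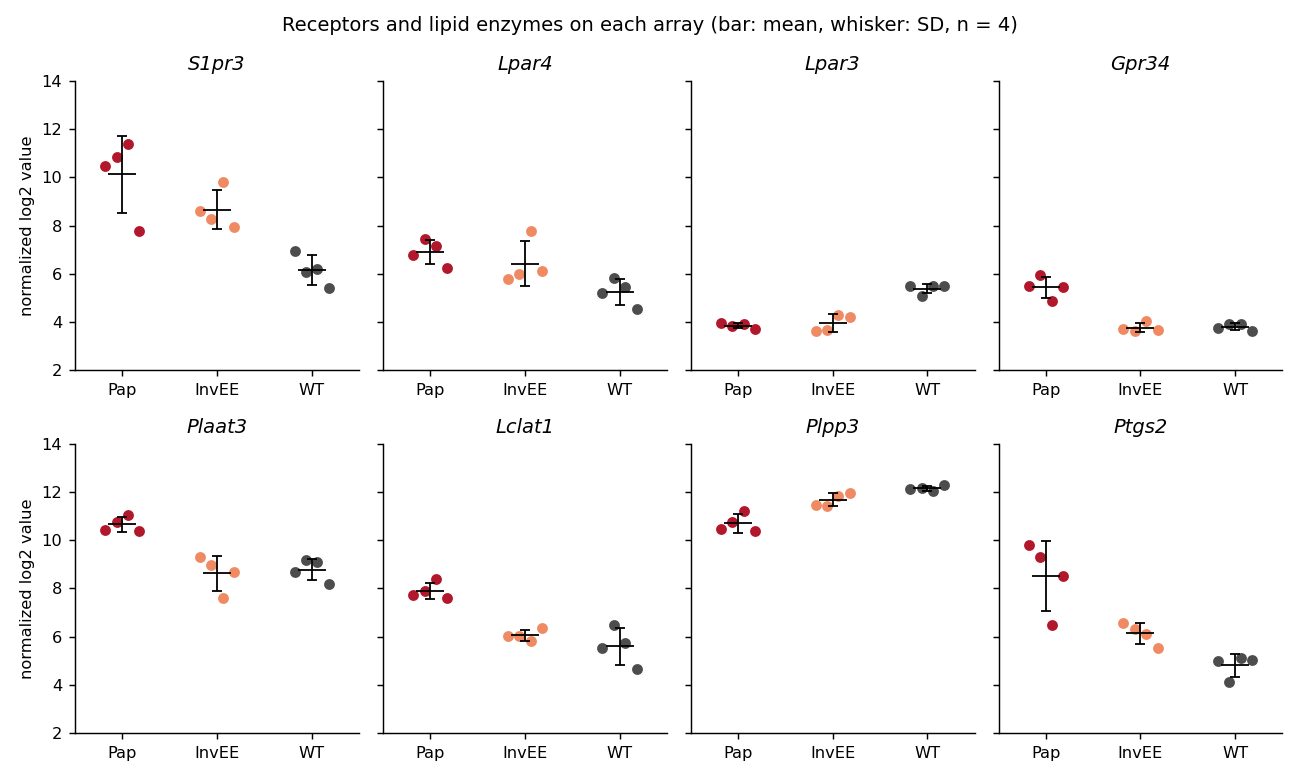
Normalized log2 values on each array (points, replicates 1 to 4 from left to right), with the group mean (bar) and SD (whisker, n = 4), of 4 receptor genes in the upper row and 4 enzyme genes in the lower row, for Pap, InvEE and WT fibroblasts. S1pr3 in Pap replicate 4, at 7.79, and Ptgs2 in Pap replicate 3, at 6.48, lie below the other Pap arrays.

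Of the 12 genes of lysophosphatidic acid production and breakdown, 1 fell and 0 rose in Pap against WT fibroblasts. It was Plpp3, a phosphatase of the cell surface that removes the phosphate from lysophosphatidic acid and sphingosine-1-phosphate. It measured 10.45, 10.77, 11.22 and 10.36 on the Pap arrays, 11.44, 11.44, 11.84 and 11.97 on the InvEE arrays, and 12.10, 12.17, 12.03 and 12.30 on the WT arrays. The groups followed each other with no overlap. Pap minus WT was −1.45 ± 0.20 (adjusted p = 0.000895), and a second probe set gave −1.95. Pap minus InvEE was −0.97 ± 0.20 (adjusted p = 0.0152), and this call was lost without InvEE replicate 4, at −0.87, and under ribosomal scaling, at −0.57. Gdpd1, a lysophospholipase D, differed by −0.67 ± 0.15 (adjusted p = 0.0224) between Pap and InvEE fibroblasts, but its other probe set gave 0.60, so no direction is settled. That call was also lost without Pap replicate 1 or InvEE replicate 1 or 4, at −0.61 to −0.59.

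Of the 12 genes of cytosolic and calcium-independent phospholipases A2, 2 rose and 1 fell in Pap against WT fibroblasts. Plaat3, a phospholipase and acyltransferase known from adipose tissue, averaged 10.66 ± 0.32 in Pap, 8.63 ± 0.72 in InvEE and 8.77 ± 0.44 in WT fibroblasts. Its Pap minus WT difference of 1.88 ± 0.34 (adjusted p = 0.00427) and its Pap minus InvEE difference of 2.03 ± 0.34 (adjusted p = 0.00418) had counterparts of 1.56 and 2.05 at its other probe set. Pla2g15, the phospholipase A2 of lysosomes, rose by 1.30 ± 0.22 in Pap against WT fibroblasts (adjusted p = 0.00319), whereas its other probe set gave 0.11 and the mean of both, 0.70, was not called. Pnpla2, which encodes the adipose triglyceride lipase, fell by 1.06 ± 0.16 (adjusted p = 0.00143), but its other probe set gave −0.13, and the call was lost under ribosomal scaling, at −0.83.

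Of 6 other genes of platelet-activating factor metabolism, 0 were called in Pap against WT fibroblasts (3 at an unadjusted p under 0.05) and 1 rose in Pap against InvEE fibroblasts. That gene was Lpcat2, which makes platelet-activating factor, at 8.31 ± 0.38 in Pap and 6.85 ± 0.23 in InvEE fibroblasts (difference 1.45 ± 0.26, adjusted p = 0.00614), and its other probe set gave 0.42. Ptafr, the receptor of that lipid, differed by 0.19 between Pap and WT fibroblasts and was not called. Of 6 other phospholipases A1 and related lipases, 0 were called against WT (3 at an unadjusted p under 0.05) and Liph rose in Pap against InvEE fibroblasts by 0.82 ± 0.19 (adjusted p = 0.0249). Liph, an enzyme that makes lysophosphatidic acid in hair follicles, lost this call without Pap replicate 1 or InvEE replicate 2, 3 or 4, at 0.74 to 0.87. Its InvEE mean was dim, its other probe set gave 0.10, and the mean of both, 0.46, was not called (adjusted p = 0.0631).

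Of the 18 lysophospholipases and lysophospholipid acyltransferases, which return lysophospholipids to phospholipids or degrade them, 1 rose and 1 fell in Pap against WT fibroblasts. Lclat1, an acyltransferase known for remodelling cardiolipin, measured 7.72, 7.87, 8.38 and 7.61 on the Pap arrays, 6.01, 6.02, 5.82 and 6.36 on the InvEE arrays, and 5.54, 6.48, 5.72 and 4.64 on the WT arrays. Pap arrays were above all others, against dim means in InvEE and WT fibroblasts, with Pap minus WT 2.30 ± 0.32 (adjusted p = 0.000895) and Pap minus InvEE 1.84 ± 0.32 (adjusted p = 0.00559). Agpat3, an acyltransferase that uses lysophosphatidic acid, fell by 0.90 ± 0.15 in Pap against WT fibroblasts (adjusted p = 0.00272), and 3 other probe sets gave −1.54 to −0.70. Under ribosomal scaling that call was lost, at −0.67. Agpat3 also fell by 0.58 ± 0.15 in Pap against InvEE fibroblasts (adjusted p = 0.0377), but 14 of 19 alternatives lost this call. It was lost without any 1 InvEE array, without Pap replicate 2, 3 or 4 or without WT replicate 2 or 3, at −0.62 to −0.49. Under ribosomal scaling it was lost at −0.18. Values as deposited, no dim genes and the replicate block lost it as well. Mboat1, an acyltransferase for lysophosphatidylserine and lysophosphatidylethanolamine, stood out in InvEE fibroblasts, at 6.72 ± 0.10 in Pap, 8.07 ± 0.13 in InvEE and 7.07 ± 0.29 in WT fibroblasts. It was the 1 gene of the 92 that rose in InvEE against WT fibroblasts (1.00 ± 0.16, adjusted p = 0.0222), and its other probe set gave −0.16. This call was lost without InvEE replicate 1 or 2 or WT replicate 1 or 2, at 0.90 to 1.01. It was also lost on the mean of both probe sets, at 0.42, under ribosomal scaling, at 0.83, and with the replicate block. In all, 8 of 19 alternatives lost it, among them the spike covariate.

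Downstream of arachidonate release by Pla2g4a, 2 of 14 genes rose and 0 fell in Pap against WT fibroblasts. Ptgs2, the inducible prostaglandin synthase, is the next protein-coding gene beside Pla2g4a on chromosome 1 in the RefSeq annotation. It measured 9.78, 9.30, 6.48 and 8.51 on the Pap arrays, 6.57, 6.33, 6.09 and 5.52 on the InvEE arrays, and 5.00, 4.10, 5.11 and 5.01 on the WT arrays. All WT arrays were below all Pap and InvEE arrays, while Pap replicate 3 lay within the InvEE range. The low Pap array of Ptgs2 was thus replicate 3, and that of Pla2g4a was replicate 4. Pap minus WT of Ptgs2 was 3.71 ± 0.57 (adjusted p = 0.00168), with 3.22 at its other probe set, but its WT and InvEE means were dim, so the size is uncertain. Pap minus InvEE was 2.39 ± 0.57 (adjusted p = 0.0291), a call lost without Pap replicate 1, 2 or 4 or any 1 InvEE array, at 1.97 to 2.54. Alox5ap, which presents arachidonate to the 5-lipoxygenase, averaged 7.23 ± 0.22 in Pap, a dim 5.93 ± 0.32 in InvEE and 6.35 ± 0.27 in WT fibroblasts, and rose by 0.88 ± 0.20 against WT (adjusted p = 0.0144) and by 1.30 ± 0.20 against InvEE (adjusted p = 0.00228).

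With the spike controls as a covariate, 4 of the 12 pathway genes called in Pap against InvEE fibroblasts were still called, Plaat3, Gpr34, Lclat1 and Mboat1. The difference was then 1.33 for Pla2g15, 1.18 for Lpcat2, 0.24 for Liph, −0.67 for Plpp3, −0.58 for Gdpd1, −0.43 for Agpat3, 1.54 for Ptgs2 and 0.96 for Alox5ap, none of these called. InvEE minus WT was −1.57 for Lpar3 and 1.16 for Mboat1 in that fit, not called. All InvEE arrays were below all Pap and WT arrays in spike level, so the covariate and the InvEE group can hardly be told apart.

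Over the 12 arrays, the genes whose values were most like a member's are given as a description, since the points share the 3 groups and their arrays. Closest to Pla1a were Gpc1, a cell-surface heparan sulphate proteoglycan (Pearson r = 0.988), the uridine kinase gene Uck2 (0.984) and Col7a1, the collagen of anchoring fibrils (0.981). Col7a1 averaged 13.07 ± 0.25 in Pap, 8.99 ± 0.55 in InvEE and 8.41 ± 0.22 in WT fibroblasts. Pla2g7 was most like the adhesion receptor gene Adgrl3 (0.975), the collagen prolyl hydroxylase subunit gene P4ha3 (0.974) and Entpd7 (0.974). Pla2g5 was most like Gpr1, a receptor gene (0.982), Cyp27a1, the sterol hydroxylase of mitochondria (0.974), and Cyp2f2 (0.974). Cyp27a1 averaged 6.76 ± 0.05 in Pap, 8.28 ± 0.87 in InvEE and 10.13 ± 0.38 in WT fibroblasts. Likeness was weaker for Pla2g2e, with Nod1 (0.944), Cyb5a (0.938) and Eppk1 (0.930), and for Pla2g4a, with Trim25 (0.924), Bzw1 (0.905) and Nipa2 (0.899).

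The sorted cells carried fibroblast transcripts in all groups, and markers of some other cells differed between groups. Pdgfra averaged 10.87 ± 0.35 in Pap, 10.62 ± 0.22 in InvEE and 9.94 ± 0.49 in WT fibroblasts. It was called higher in Pap against WT by limma (0.93 ± 0.25, adjusted p = 0.0349), with 1.09 and 1.75 at its other 2 probe sets. Col1a1, a chain of type I collagen, averaged 14.48 ± 0.05 in Pap, 14.30 ± 0.19 in InvEE and 14.45 ± 0.08 in WT fibroblasts. Over 14 keratinocyte markers the mean value per array lay between 6.76 and 8.39 in Pap, 7.47 and 8.72 in InvEE and 6.49 and 6.79 in WT fibroblasts. Of the 14, 3 were called higher in Pap against WT and 2 in InvEE against WT, and 1 was called lower in Pap against InvEE. Their median difference was 0.55 for Pap minus WT, 1.09 for InvEE minus WT and −0.78 for Pap minus InvEE. Krt14, a keratin of basal epidermis, averaged 9.05 ± 1.17 in Pap, 9.10 ± 1.08 in InvEE and 6.67 ± 0.29 in WT fibroblasts, and its other 2 probe sets gave 0.16 and 1.66 for Pap minus WT. Of 6 neutrophil markers, 2 were called higher in Pap against WT and 2 in Pap against InvEE. Their means per array were 5.998 to 6.23 in Pap, 5.46 to 5.75 in InvEE and 5.54 to 5.78 in WT fibroblasts. The leukocyte gene Ptprc was dim in all groups, at 5.69 ± 0.61 in Pap, 5.09 ± 0.10 in InvEE and 5.56 ± 0.50 in WT fibroblasts. Cdh5, the cadherin of endothelial cells, averaged 6.36 ± 0.48 in Pap, 6.27 ± 0.71 in InvEE and 6.03 ± 0.45 in WT fibroblasts. Of 24 endothelial, T cell, mast cell and adipocyte markers, 0 were called by limma in any comparison, and 4 had an unadjusted p under 0.05 in Pap against WT. The part of keratinocytes and neutrophils in the phospholipase values was not tested.

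**Figure D5:**
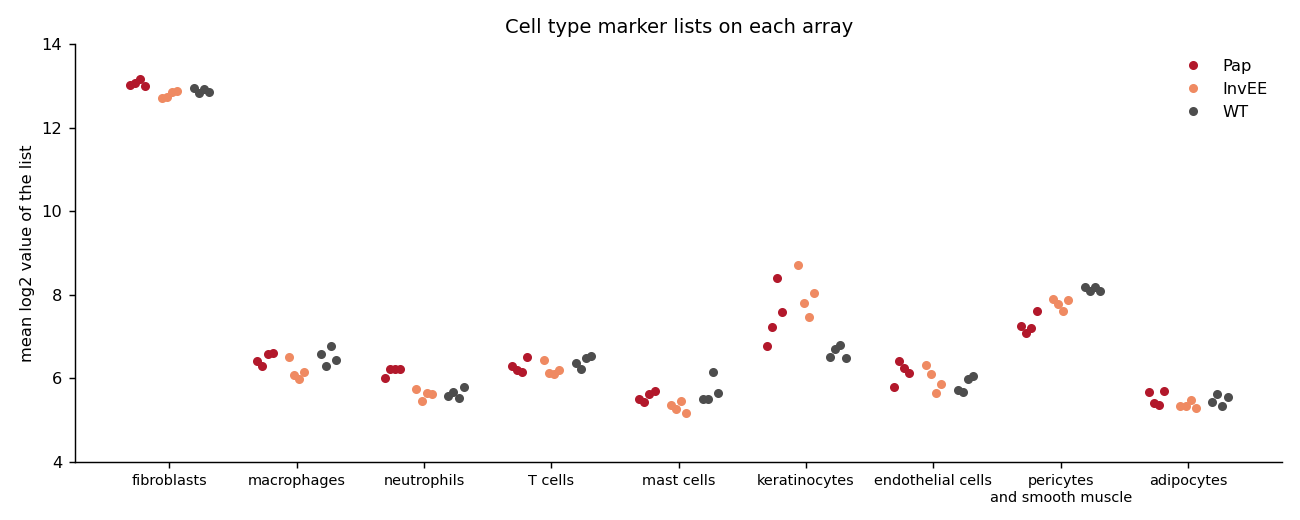
Mean normalized log2 value of 9 cell type marker lists on each array (points), for Pap, InvEE and WT fibroblasts. Keratinocyte markers reach 8.39 on the Pap arrays and 8.72 on the InvEE arrays, against 6.79 on the WT arrays, and pericyte and smooth muscle markers are lowest on the Pap arrays, at 7.08 to 7.61.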

How the data were processed

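Gene expression of 12 sorted fibroblast samples was measured on 1 Affymetrix array each. The deposited values are on a log2 scale, with a lowest value of 2.08 and a highest of 14.96 over all probe sets. The submitters' processing notes name limma with no version. Background correction and summarisation: not given in the sources used here. Of 45101 probe sets, 34958 had exactly 1 gene symbol, and the one with the highest mean over the arrays stood for each of 18194 genes. Array quartiles spanned up to 0.284, over the limit of 0.1, so values were quantile normalized. Correlations within groups were 0.890 to 0.987, and no pair of arrays shared over 0.253% of values, so each array counted once. Precision is limited by 4 arrays a group.

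The 12 arrays entered a single fit of 3 group means in limma 3.58.1 under R 4.3.3 (lmFit, eBayes), two-sided, with Benjamini-Hochberg adjustment over all genes and calls at an adjusted p under 0.05. Control measures were compared by exact permutation tests. Alternatives were the values as deposited, ribosomal scaling, the mean of all probe sets, no dim genes, the spike controls as a covariate, a replicate block and each array left out.

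The members and lists were chosen with earlier results of these data known. Named genes were the members, in each list and comparison up to 3 called genes with the largest difference, the 3 genes most correlated with each member, and Pdgfra, Col1a1, Ptprc, Adgre1, Krt14 and Cdh5. Start regions and gene order came from RefSeq tables of GRCm38.p6. Of 104 listed pathway genes, those with no probe set of exactly 1 symbol were not analysed here. The lists of T cell and neutrophil markers likewise held 6 measured genes of 8 listed each.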

Additional observations from a re-analysis of the deposited data

Results flagged for a closer look

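Of 63 groups of 4 arrays examined for the members and named pathway genes, 4 held an array whose gap to the nearest of the others exceeded Dixon's 95% critical share of the range of the group, and chance gives about 3.15. Lpar4 measured 7.79 in InvEE replicate 3, against 5.80 to 6.11 on the other InvEE arrays. Ptgs2 measured 4.10 in WT replicate 2, against 5.00 to 5.11 on the other WT arrays. Agpat3 measured 9.63 in WT replicate 1, against 9.22 to 9.28 on the other WT arrays, and Lpar3 measured 5.08 in WT replicate 2, against 5.48 to 5.50 on the others. No array of a member met this limit.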

How the results depend on the processing

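The differences of Pla1a, Pla2g7, Pla2g5 and Pla2g2e kept their sign in all 3 comparisons under each of the 19 alternatives run. Over these, Pap minus WT was 5.24 to 5.61 for Pla1a, 4.86 to 5.63 for Pla2g7, −4.14 to −3.65 for Pla2g5, −4.37 to −2.89 for Pla2g2e and 1.19 to 2.32 for Pla2g4a. Exceptions in size or sign came with the spike controls as a covariate, where Pap minus InvEE was −0.48 for Pla2g2e and 2.49 for Pla2g4a and InvEE minus WT of Pla2g4a was −0.63, not called (adjusted p = 0.772). The cause was not tested. Leaving out 1 array gave 0.82 to 1.48 for InvEE minus WT of Pla1a, with a call only without InvEE replicate 3. Of 25 called differences of named pathway genes, 472 alternative values kept their sign, with 407 still called and 65 not.

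Counts of called genes depended on the setting. For InvEE against WT the count was 97, with 62 on values as deposited, 228 on the mean of all probe sets, 219 without Pap replicate 4 and WT replicate 4, and 0 with the spike covariate in limma, where 2205 genes had an unadjusted p under 0.05 (2838 without it). Leaving out 1 array gave 0 to 249, and it was 0 without InvEE replicate 1 or 2 or WT replicate 1, where 2222, 1966 and 2358 genes had an unadjusted p under 0.05. For Pap against InvEE the count was 1221, with 3715 under ribosomal scaling, 259 with the spike covariate and 578 to 1581 without 1 array. For Pap against WT, 1756 genes were called and 1259 to 2087 under the alternatives. Of the 92 pathway genes, 12 were called in Pap against InvEE, 27 under ribosomal scaling, 4 with the spike covariate and 7 to 12 without 1 array. In InvEE against WT 2 were called, 1 under ribosomal scaling, on the mean of all probe sets and without dim genes, 0 with the spike covariate and 0 to 3 without 1 array.

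Deviations of same-numbered arrays from their group means correlated at −0.09 to 0.18 over all genes. These low values do not settle whether the numbers pair the samples. Poly-A spike levels of replicates 1 to 4 were 10.98, 10.56, 9.78 and 12.50 in Pap fibroblasts. In WT fibroblasts they were 10.33, 10.22, 9.24 and 12.24, the same order. In InvEE fibroblasts they were 8.60, 8.09, 8.04 and 7.76, another order. A shared processing step of same-numbered arrays was not tested. With the replicate block, 1551 genes were called in Pap against WT, 1039 in Pap against InvEE and 57 in InvEE against WT, with 1 pathway gene in the last. With 4 arrays a group and background correction not given, differences from dim groups are the least certain in size.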
